A study of Mus musculus with 7 samples.

Results

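Trem2, Tyrobp, Gpnmb, Gas6, Lgals3, Spp1 and Mertk are genes of apoptotic-cell uptake and of lipid-laden phagocytes, and 5 of these 7 had a probe set with 1 gene symbol among the 9999 genes compared. Where a gene had several such probe sets, the brightest one on average across the 7 arrays was taken. Spp1 and Mertk were not analysed here. The RNA was from RAW264.7, a macrophage-like mouse line, in 2 groups that were both untreated and labelled as time point T0: 3 arrays of the wild-type line and 4 arrays labelled RAW GfI1-1, the Gfi1 knockout. Gfi1 is a zinc finger repressor of transcription in blood cells. Each array's title calls it a biological replicate. The labels do not say how the knockout was made, whether it is 1 clone, or whether replicates were separate cultures. The p-values therefore reflect only the spread between arrays so labelled, which may still be technical.

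TREM2 is a surface receptor for lipids and dying cells that has no signalling tail of its own. It pairs with TYROBP (DAP12), a small adaptor whose tyrosine motif recruits the kinase SYK. GAS6 bridges phosphatidylserine on dying cells to the TAM receptor kinases TYRO3, AXL and MERTK, and gains this ability through vitamin K dependent carboxylation. GPNMB is a transmembrane glycoprotein of lysosome-rich and lipid-laden macrophages, galectin-3 (Lgals3) is a sugar-binding protein abundant in phagocytes, and SPP1 is the secreted integrin ligand osteopontin. Together these genes mark macrophages that clear dead cells and lipid, in tissues from bone to brain.

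On log2 signal, the SD of the difference between any 2 wild-type arrays over all genes was 0.11 to 0.17. Knockout arrays 1 and 2, and arrays 3 and 4, formed similar pairs (0.12 and 0.14), while the other knockout pairings lay 0.50 to 0.51 apart. Because no label separates these pairs, the 4 knockout arrays were 1 group in the main test. Some alternatives left out a pair, averaged the pairs or treated them as blocks. A fit with the wild-type arrays and each similar pair as random blocks is given where it ends a reported rise or fall. It is given for the gene itself or only as a count for its list, and not for the marker counts below. It used 1 correlation within blocks for all genes (0.79), with 1 wild-type block and 2 knockout blocks. A gene whose pairs differ more than that correlation allows can still get too small a p-value. The only Gfi1 probe set was higher in the arrays labelled knockout, at 4.47 ± 0.58 (SD, n = 4) against 2.83 ± 0.16 (SD, n = 3). All wild-type arrays (2.66, 2.85 and 2.98) were below the level under which the lowest 5% of genes lay (3.51). Knockout replicates 1 and 2 stood 2.11 and 2.19 above the wild-type mean, and replicates 3 and 4 stood 1.15 and 1.14 above it. The position of the probe set relative to the altered part of the gene is unknown, so it is no check on the labels. Directions below rest on the labels. Of 12 macrophage markers, 10 were measured, and 8 lay above the array median on all wild-type arrays, among them Csf1r, Adgre1, Cd68 and Lyz2. The summed linear signal of the 10 was 29377 to 29820 in wild type and 19809 to 21028 in knockout. By limma 8 of the 10 fell, where 21.6% of all genes fell. Macrophage markers thus moved with the genes described here, and their part in these results was not tested. Of markers for 9 other cell types, 8 genes were measured, and 4 of them fell. These were Blnk (B cell), Pdgfrb (stroma), and Atp6v0d2 and Nfatc1, 2 of the 4 osteoclast markers. Pdgfrb was dim, with linear signal of 14.7 to 15.2 in wild type and 5.81 to 7.38 in knockout. Array medians were 93.8 to 101, so low signal limits what its fall can show. The summed signal of the 4 osteoclast markers was 434 to 446 in wild type and 283 to 593 in knockout. Nfatc1 did not pass as the mean of its probe sets (-0.20, limma adjusted p = 0.0646). Blnk, the only B cell marker measured, fell by 2.79 on the log2 scale and lay above the array median on all wild-type arrays. Fewer expressing cells and less RNA per cell cannot be told apart in such bulk samples.

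All 5 measured genes had lower signal in knockout, and in each of them every knockout array lay below every wild-type array. By limma with adjustment over all genes, 0 rose and 5 fell, where 43.1% of all 9999 genes were called, 21.6% as falls and 21.5% as rises. Over the same genes 27.9% did not overlap with knockout lower, and the median log2 difference was -0.01. With the random blocks 3 of the 5 fell (Trem2, Tyrobp and Gpnmb), where 4.56% of all genes fell and 4.48% rose. The falls ran from 34.3-fold for Gpnmb through 6.87-fold for Trem2, 3.80-fold for Gas6 and 1.89-fold for Tyrobp to 1.31-fold for Lgals3. These genes were proposed with earlier results of these arrays known, so their shared direction is a description and not independent evidence.

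**Figure D1:**
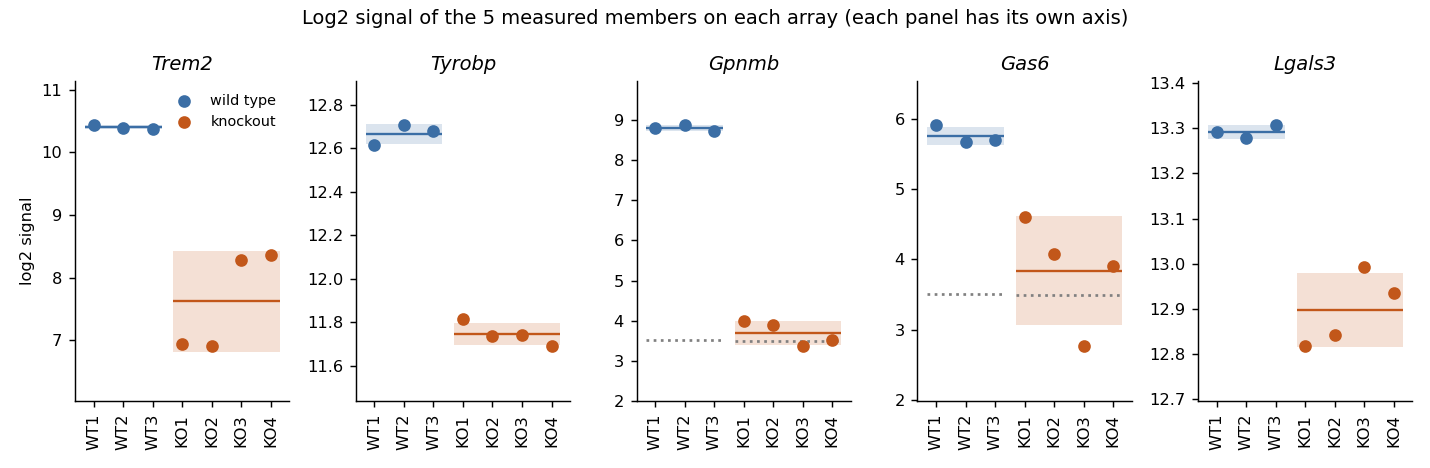
Log2 signal (vertical axes, each panel with its own range) of the 5 measured genes on the wild-type arrays (WT1 to WT3, blue) and the knockout arrays (KO1 to KO4, orange). Lines are group means, bands ± 1 SD, and dotted lines the level below which the lowest 5% of genes lay (3.51 in wild type, 3.49 in knockout). Every knockout point lies below every wild-type point, Trem2 splits into KO1 and KO2 near 6.9 and KO3 and KO4 near 8.3, and Gpnmb and Gas6 in knockout reach the dotted line.

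Because Trem2 and Gpnmb fell furthest of the 5, the 250 bases before the annotated start of each are shown, from RefSeq (GRCm38.p6). Of the 5 genes, 4 matched the promoter table used, namely Trem2, Gpnmb, Gas6 and Lgals3. The Trem2 stretch is chr17:48346151-48346400 on the plus strand, upstream of the gene at 48346401 to 48352276. The Gpnmb stretch is chr6:49036268-49036517 on the plus strand, upstream of the gene at 49036518 to 49058182. Capitals mark matches to the motifs searched.
Trem2: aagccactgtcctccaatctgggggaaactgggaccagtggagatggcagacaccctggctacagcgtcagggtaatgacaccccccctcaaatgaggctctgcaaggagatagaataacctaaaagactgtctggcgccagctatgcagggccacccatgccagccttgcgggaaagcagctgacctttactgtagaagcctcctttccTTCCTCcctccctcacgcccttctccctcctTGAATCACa
Gpnmb: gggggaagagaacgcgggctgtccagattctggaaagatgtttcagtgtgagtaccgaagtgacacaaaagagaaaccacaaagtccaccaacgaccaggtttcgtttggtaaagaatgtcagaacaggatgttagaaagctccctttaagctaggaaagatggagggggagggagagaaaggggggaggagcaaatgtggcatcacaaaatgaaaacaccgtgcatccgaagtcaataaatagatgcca

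Both strands were searched for GAGGAA (an ETS core of the PU.1 type), CACGTG and CATGTG (E-boxes bound by MITF and its relatives), TGANTCA (AP-1) and AATCAC (which holds the AATC core bound by Gfi1). The Trem2 stretch held 1 GAGGAA on the minus strand, beginning 40 bases before the start, 1 TGANTCA at 9 bases and 1 AATCAC at 7 bases, and the last 2 matches share letters. The Gpnmb, Gas6 and Lgals3 stretches held no match to any of the 5. Among 32851 promoter windows of the same 250 bases, 23.3% held GAGGAA, 6.02% CACGTG, 12.3% CATGTG, 6.75% TGANTCA and 9.14% AATCAC. These matches describe letters only. No binding was measured.

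Trem2, the receptor, is read by 1 probe set, whose name ending (_s_at) marks probes shared between transcripts. Its log2 signal was 10.43, 10.40 and 10.38 in wild-type replicates 1 to 3, and 6.95, 6.91, 8.28 and 8.36 in knockout replicates 1 to 4. The wild-type arrays were nearly equal, and the knockout arrays were all lower but split into a pair of low and a pair of intermediate arrays. Trem2 fell from 10.40 ± 0.03 (SD, n = 3) to 7.62 ± 0.80 (SD, n = 4), a log2 difference of -2.78 (95% interval -3.72 to -1.84, limma adjusted p = 0.00170). The mean fall was 11.1-fold in knockout replicates 1 and 2 and 4.24-fold in replicates 3 and 4. That gap of 1.39 on the log2 scale, among arrays of 1 label, was not tested. With the similar arrays as random blocks the adjusted p was 0.00780. That fit shares 1 correlation over all genes, so it may not carry the full gap between the Trem2 pairs.

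Tyrobp, the adaptor that TREM2 needs to signal, changed less and more evenly. Its log2 signal was 12.61, 12.71 and 12.68 in wild type, and 11.81, 11.74, 11.74 and 11.69 in knockout replicates 1 to 4. The nearest arrays of the groups were 0.80 apart, while the range within the knockout group was 0.12. Tyrobp fell by 0.92 on the log2 scale (95% interval -1.06 to -0.78, limma adjusted p = 6.57e-05; 0.0109 with random blocks). The log2 ratio of Trem2 to Tyrobp within an array, centred on wild type, lay between -0.05 and 0.08 in wild type. It was -2.61 and -2.57 for knockout replicates 1 and 2 and reached -1.20 and -1.07 for replicates 3 and 4. Receptor and adaptor thus changed by unequal amounts, and the adaptor did not share the split between knockout arrays.

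Gpnmb had the largest fall among the members. Its log2 signal was 8.79, 8.86 and 8.72 in wild type, and 3.98, 3.89, 3.37 and 3.52 in knockout replicates 1 to 4. All knockout arrays were close to the level of the lowest 5% of genes (3.49), and replicate 3 was below it. Gpnmb fell by 5.10 on the log2 scale (95% interval -5.47 to -4.73, limma adjusted p = 4.31e-06; 0.000125 with random blocks). Since signal so low cannot be told from background, the size of 34.3-fold is uncertain. With 16 added to every signal before the logarithm, the difference was -3.98. A second Gpnmb probe set was dim even in wild type, at 3.56 ± 0.08 (SD, n = 3), and stood at 2.19 ± 0.30 (SD, n = 4) in knockout. The mean of both probe sets differed by -3.24, with an adjusted p of 4.12e-06.

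Gas6, the bridging ligand, had modest signal in wild type and low signal in knockout. Its log2 signal was 5.92, 5.67 and 5.71 in wild type, and 4.61, 4.08, 2.76 and 3.90 in knockout replicates 1 to 4. Knockout replicate 3 was lowest, below the level of the lowest 5% of genes, and the groups were 1.06 apart at their nearest. Gas6 fell by 1.93 on the log2 scale (95% interval -2.85 to -1.01, limma adjusted p = 0.00712), and the difference was -1.57 without knockout replicate 3. The call ended with the similar arrays as random blocks (adjusted p = 0.199). With 16 added to every signal the difference was -1.18, which is over 1.5 times smaller.

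Lgals3 was bright on every array and changed least. Its log2 signal was 13.29, 13.28 and 13.31 in wild type, and 12.82, 12.84, 12.99 and 12.94 in knockout replicates 1 to 4. The groups did not overlap, with 0.28 between the nearest arrays. Lgals3 fell by 0.39 on the log2 scale (95% interval -0.55 to -0.24, limma adjusted p = 0.00305). The call ended when tested against a fold of 1.2 (adjusted p = 0.161) and with random blocks (adjusted p = 0.130).

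**Figure D2:**
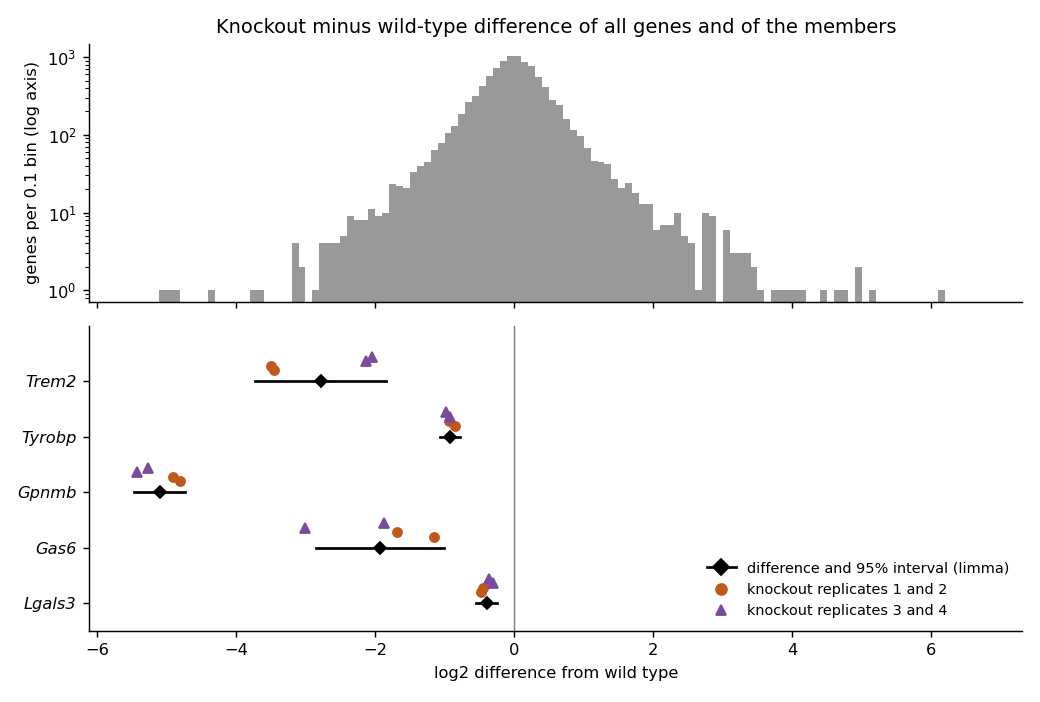
Top, number of genes (log axis) per bin of 0.1 in the log2 difference, knockout minus wild type, over 9999 genes. Bottom, the same difference for the 5 measured genes with its 95% interval (diamonds, limma) and each knockout array's distance from the wild-type mean (circles, replicates 1 and 2; triangles, replicates 3 and 4). Gpnmb lies at the far left at -5.10, Tyrobp and Lgals3 lie close to the bulk, and Trem2 is lower in replicates 1 and 2 than in replicates 3 and 4.

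The gap between the knockout pairs had no common sign among the 5 genes. Replicates 3 and 4 stood above replicates 1 and 2 by 1.39 for Trem2 and 0.13 for Lgals3 on the log2 scale. They stood below them by values of -1.01 for Gas6, -0.49 for Gpnmb and -0.06 for Tyrobp. The Gas6 gap rested on replicate 3, and replicate 4 alone stood at -0.45 from the mean of replicates 1 and 2. The Gpnmb gap lies among signals near the level of the lowest 5% of genes. These gaps were not tested.

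Around TREM2 and TYROBP, 24 of 34 listed receptors, kinases and adaptors were measured, of which 2 rose and 11 fell, with a median log2 difference of -0.29. With random blocks 2 rose and 2 fell. Omitting any single wild-type array left 8 falls, averaging probe sets left 9, and omitting knockout replicate 2 gave 13. Medians were smaller in size on knockout arrays 1 and 2 (-0.14 and -0.07) than on arrays 3 and 4 (-0.39 each). Over all genes 21.5% rose and 21.6% fell (4.48% and 4.56% with random blocks), against 8.33% and 45.8% in this list. Counts in the lists below are to be read against the same shares. Trem3, another TREM receptor, rose by 1.55 (SE 0.18, limma adjusted p = 0.000668), and Lcp2, an adaptor below SYK, rose by 1.29 (SE 0.09). The Ras exchange factor gene Sos1 fell by 1.73 (SE 0.31), although the mean of its 3 probe sets did not pass (-0.37, adjusted p = 0.104). Pik3r1, the regulatory subunit of PI3-kinase, fell by 1.14 (SE 0.07). Fcer1g, the other motif-bearing adaptor of myeloid receptors, fell by 0.69 (SE 0.13, limma adjusted p = 0.00536; 0.0522 with random blocks).

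Of the genes central to this pathway, a few outside the naming rule are given for their role, after their values were seen. Trem1 had a difference of -0.01 (adjusted p = 0.903). Its mean log2 signal was 3.68 in wild type and 3.67 in knockout, close to the low-signal levels of 3.51 and 3.49. So dim a probe set cannot show whether Trem1 changed. Syk stood 0.95 and 1.00 above the wild-type mean on the first pair of knockout arrays and at -1.10 and -1.03 on the second pair, so its mean difference of -0.05 (SE 0.59, adjusted p = 0.955) hides arrays on both sides. The phospholipase gene Plcg2 fell by 0.32 (SE 0.06), and Hcst, which encodes the adaptor DAP10, fell by 0.47 (SE 0.08). Neither passed with random blocks (adjusted p = 0.218 for Plcg2 and 0.102 for Hcst) or against a fold of 1.2 (0.512 and 0.0824).

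For GAS6, 4 of 6 listed TAM receptors, ligands and vitamin K cycle genes were measured, of which 1 rose and 1 fell (median -0.12). These are 25% each of few genes, near the 21.5% and 21.6% of all genes. Tyro3 and Axl were not analysed here. Vkorc1, which regenerates the vitamin K needed to carboxylate GAS6, fell by 0.85 (SE 0.06, limma adjusted p = 8.55e-05). Its relative Vkorc1l1 rose by 0.55 (SE 0.07), but not with random blocks (adjusted p = 0.0740) or as the mean of its 2 probe sets (0.16, adjusted p = 0.0661). The carboxylase gene Ggcx stood at -0.19 (SE 0.12, adjusted p = 0.225), but passed as the mean of its 2 probe sets (-0.30, adjusted p = 0.0210). Its brightest probe set was dim, at 3.65 in wild type and 3.46 in knockout, near the low-signal levels of 3.51 and 3.49. So low a signal limits what the missing call for Ggcx can show. Pros1, the gene of the other TAM ligand, stood at -0.05 (SE 0.16, adjusted p = 0.813), with the first pair of knockout arrays at -0.21 and -0.39 and the second at 0.22 and 0.17. The 95% interval for Pros1 ran from -0.42 to 0.32, so a fall of the size seen for Gas6 lies outside it.

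Among other bridging molecules, uptake receptors and do-not-eat-me signals, 20 of 35 were measured, of which 5 rose and 9 fell (median -0.13; 2 and 5 with random blocks). The receptor for phosphatidylserine Cd300a fell by 2.38 (SE 0.14, limma adjusted p = 4.78e-05) and its relative Cd300lf by 1.17 (SE 0.14). The scavenger and uptake receptor gene Lrp1 fell by 1.43 (SE 0.07), and Sirpa, the receptor that reads the do-not-eat-me signal CD47, by 1.38 (SE 0.07). Anxa5, which encodes a phosphatidylserine-binding annexin, stood at 0.08 (SE 0.06, adjusted p = 0.279). Outside the naming rule and chosen after their values were seen, the bridging molecule gene Mfge8 rose by 1.11 (SE 0.18), against the direction of Gas6, and Cd47 rose by 0.78 (SE 0.08). The mean of the 5 Cd47 probe sets had the opposite sign and did not pass (-0.27, adjusted p = 0.335). The list thus changed in both directions, with 3 rises in place of 5 without wild-type replicate 2 or 3. Its median differed by array, at 0.01 and 0.03 on the first pair of knockout arrays against -0.39 and -0.38 on the second.

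In the engulfment and phagosome machinery, 30 of 32 genes were measured, of which 2 rose and 14 fell (median -0.22; 0 and 4 with random blocks). Dock1, the Rac exchange factor that acts with ELMO below uptake receptors, fell by 1.19 (SE 0.18, limma adjusted p = 0.00192), and the adaptor gene Crk fell by 0.93 (SE 0.16). The LC3 gene Map1lc3a fell by 0.82 (SE 0.13). Rab14, a small GTPase of the phagosome, fell by 0.81 (SE 0.19) and Lamp1, a lysosome membrane protein gene, by 0.58 (SE 0.09), and neither passed with random blocks (adjusted p = 0.0659 and 0.0523). By array, the list's median ranged from -0.28 to -0.13 across the knockout group. Without wild-type replicate 1 the rises numbered 1, and without wild-type replicate 2 or 3 they numbered 0.

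Of genes for the response after uptake, 14 of 25 were measured, and 4 rose and 3 fell (median 0.22, with 2 and 2 under random blocks). These are 28.6% and 21.4%, near the 21.5% and 21.6% of all genes. Odc1, the first enzyme of polyamine synthesis, rose by 2.72 (SE 0.13, limma adjusted p = 2.34e-05). The transcription factor gene Klf4 fell by 1.43 (SE 0.19) and the lipase gene Lpl by 0.89 (SE 0.07). Dusp4, a MAP kinase phosphatase gene, rose by 1.16 (SE 0.39, limma adjusted p = 0.0457), a call that ended without any single wild-type array, without knockout replicate 1 or 2, and with random blocks (adjusted p from 0.0862 to 0.141). The rises in this list numbered 2 without any single wild-type array or without knockout replicate 1 or 2, and 6 without knockout replicate 4.

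Of 35 other genes of lipid-laden phagocytes, the programme that Trem2, Gpnmb and Lgals3 are known for, 30 were measured, and 6 rose and 12 fell (median -0.18; 4 and 9 with random blocks). The chemokine genes Ccl3 and Ccl4 rose by 3.27 (SE 0.34) and 3.02 (SE 0.58), and Fabp5, a fatty acid binding protein gene, by 2.77 (SE 0.08, limma adjusted p = 3.97e-06). The adhesion molecule gene Cadm1 fell by 2.80 (SE 0.24), and the iron storage gene Fth1 stood at 0.04 (SE 0.10, adjusted p = 0.761). Fth1 was above the wild-type mean on the first pair of knockout arrays (0.19 and 0.21) and below it on the second (-0.12 and -0.11). Further members of this list that fell, chosen after their values were seen, were Timp2 (-2.62), Clec7a (-1.88), Ctsd (-1.26), Plin2 (-1.22) and Lipa (-0.91). The remaining genes of the list that rose by limma were Hif1a (0.86), Cd36 (0.68) and Cd52 (0.26). With random blocks 4 of the 6 rises passed, among them Ccl3, Ccl4 and Fabp5 (adjusted p = 0.00205, 0.0215 and 0.000160). Not all of Hif1a, Cd36 and Cd52 therefore passed in that fit. Apoe and Axl were not analysed here.

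Of 23 genes of MITF and its relatives and of GPNMB partners, 17 were measured, and 1 rose and 5 fell (median 0.04; 0 and 1 with random blocks). The falls numbered 3 without wild-type replicate 2 or 3, and the rises 2 and 3 without knockout replicate 3 or 4. Atp6v0d2, a subunit of the vacuolar proton pump, fell by 1.62 (SE 0.08, limma adjusted p = 2.76e-05). Mitf, whose protein is a known activator of Gpnmb, fell by 0.57 (SE 0.15, limma adjusted p = 0.0210). Its call ended without any single wild-type array (0.0578 to 0.0737), with a replicate block (0.0516), with random blocks (0.145) and as the mean of its 2 probe sets (0.0675). The shedding protease gene Adam17 fell by 0.55 (SE 0.08) and Fnip1, a folliculin partner, by 0.48 (SE 0.07), with adjusted p = 0.0901 and 0.149 under random blocks. Cd44, a receptor of GPNMB and osteopontin, stood at 0.14 (SE 0.06, adjusted p = 0.115), and the mean of its 3 probe sets rose by 0.29 (adjusted p = 0.00640). The relatives Tfe3 and Tfec, given for their role after their values were seen, stood at 0.13 (adjusted p = 0.438) and 0.15 (adjusted p = 0.578).

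Of 11 genes for the shedding of TREM2, MERTK or GPNMB (proteases, gamma-secretase subunits, protease cofactors and the inhibitor Timp1), 9 were measured, and 3 rose and 2 fell (1 and 0 with random blocks). Over all genes 21.5% rose and 21.6% fell, against 33.3% and 22.2% in this list. The list's median of -0.04 had no stable sign: it was 0.03 without wild-type replicate 2, 0.01 without wild-type replicate 3, and 0.02 without knockout replicate 3 or 4. By array it was 0.22 and 0.16 on the first pair of knockout arrays and -0.22 and -0.21 on the second. Of the proteases, Adam10, given for its role after its values were seen, rose by 0.38 (limma adjusted p = 0.00498; 0.221 with random blocks). Rhbdf2, a cofactor of ADAM17, rose by 0.86 (SE 0.12, limma adjusted p = 0.00146), and Rhbdf1 by 0.55 (SE 0.14), the latter not without wild-type replicate 2 (adjusted p = 0.0574) or with random blocks (0.408). Adam17, which fell, is given above. Psen2, a gamma-secretase subunit gene, fell by 0.67 (SE 0.10; adjusted p = 0.0687 with random blocks), and Psenen stood at -0.06 (SE 0.14, adjusted p = 0.752; 0.01 with the replicate block).

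For osteopontin, 7 of 16 receptors and processing enzymes were measured, and 0 rose and 3 fell (median 0.10; 0 and 1 with random blocks). Fam20c, the kinase that phosphorylates secreted proteins including osteopontin, fell by 2.37 (SE 0.09, limma adjusted p = 7.29e-06). The integrin genes Itga4 and Itgb5 fell by 1.05 (SE 0.30) and 0.47 (SE 0.08). Itga4 lost its call without any single wild-type array, without knockout replicate 1, as the mean of its 4 probe sets and with random blocks (adjusted p from 0.0521 to 0.0892), and Itgb5 with random blocks (0.110).

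Among galectins and galectin-3 partners, 10 of 13 were measured, and 3 rose and 4 fell (median -0.14, or 0.14 without genes under the 40th percentile; 1 and 0 with random blocks). Lgals1 fell by 0.40 (SE 0.08, limma adjusted p = 0.00714), close in size to Lgals3, and did not pass with random blocks (0.150). Lgals9 rose by 0.92 (SE 0.30, limma adjusted p = 0.0422), which ended when any single wild-type array or knockout replicate 1 or 2 was left out and with random blocks (adjusted p from 0.0644 to 0.171). Slc3a2, the heavy chain of a galectin-3 binding amino acid transporter, rose by 0.86 (SE 0.10), and the lysosome gene Lamp2 fell by 0.41 (SE 0.05; adjusted p = 0.117 with random blocks).

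**Figure D3:**
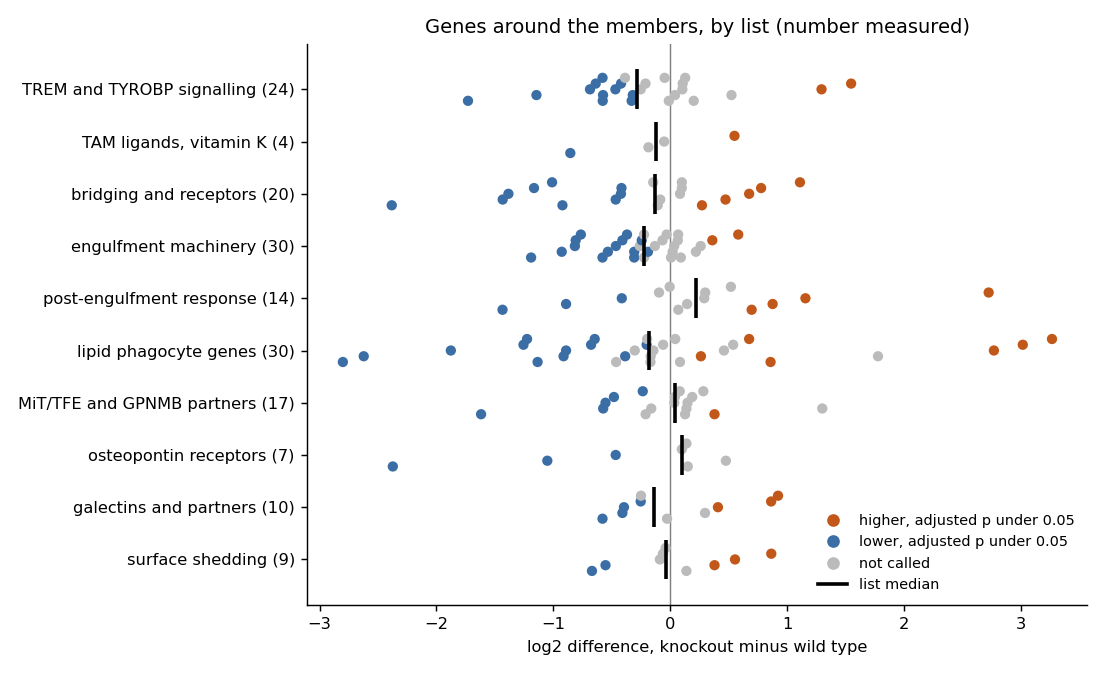
Log2 difference, knockout minus wild type (horizontal axis), of every measured gene in 10 lists around the members, with the number measured in brackets. Points are genes (orange rose, blue fell, grey not called by limma), black bars are list medians, and the grey line is the median of all genes (-0.01). Falls outnumber rises in the signalling (11 and 2), engulfment (14 and 2), lipid phagocyte (12 and 6), and bridging and receptor (9 and 5) lists. With random blocks these counts are 2 and 2, 4 and 0, 9 and 4, and 5 and 2. They also do so in the MiT/TFE (5 and 1), osteopontin (3 and 0) and galectin (4 and 3) lists. With random blocks those are 1 and 0, 1 and 0, and 0 and 1. Over all genes 21.6% fell and 21.5% rose (4.56% and 4.48% with random blocks). The lipid phagocyte list spans -2.80 to 3.27.

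The genes whose 7 values ran closest to each member were found by the root mean square distance in log2 after centring each gene on its wild-type mean. Nearest to Trem2 were Gda (0.13), Hebp1 (0.21) and Cadm1 (0.21), which had the same low pair and intermediate pair of knockout arrays. Nearest to Tyrobp were B4galnt1 (0.04), Cnnm3 (0.05) and Pdxk (0.06), though the mean of the Pdxk probe sets had the opposite sign (0.53). Nearest to Gpnmb were Cd24a (0.19), Gbp8 (0.39) and Myo1f (0.61), and all 3 had knockout means of 3.46 or less, below the level of the lowest 5% of genes. Nearest to Gas6 were Rnf144b (0.34), Zc4h2 (0.35) and Edil3 (0.37), the last without a call when wild-type replicate 2 was left out (adjusted p = 0.0522). Nearest to Lgals3 were Bcap31 (0.02), Slc35a1 (0.03) and Gnai2 (0.03). These likenesses rest on 7 arrays in 2 groups and describe these arrays only.

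**Figure D4:**
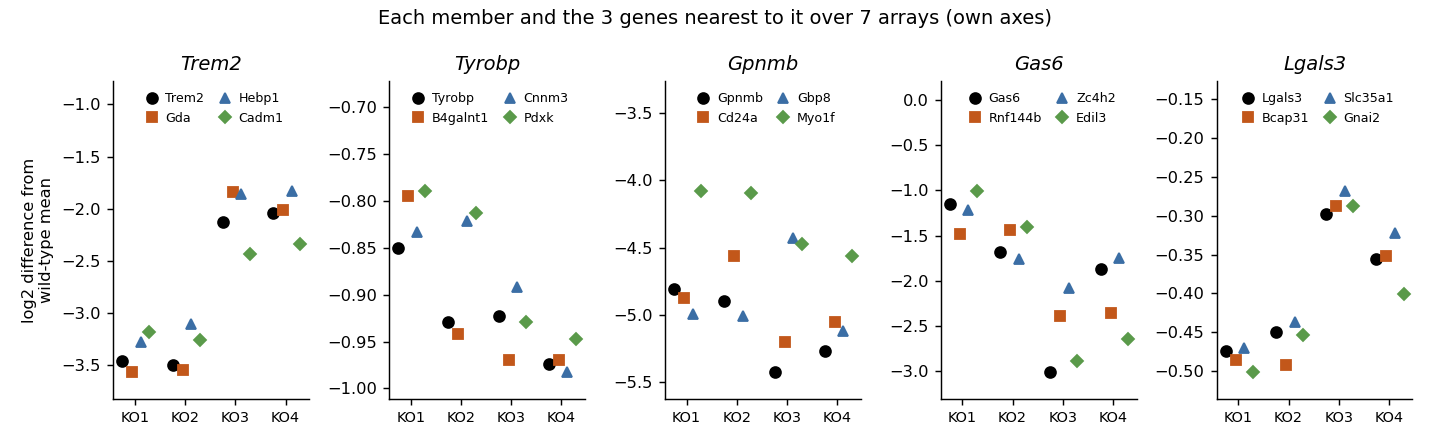
Log2 difference from the wild-type mean (vertical axes, each panel with its own range) on the 4 knockout arrays for each measured member (black circles) and its 3 nearest genes by root mean square distance over 7 arrays (coloured symbols). Gda follows Trem2 at -3.56, -3.55, -1.84 and -2.01, and the Lgals3 panel spans less than the Trem2 panel.

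**Figure D5:**
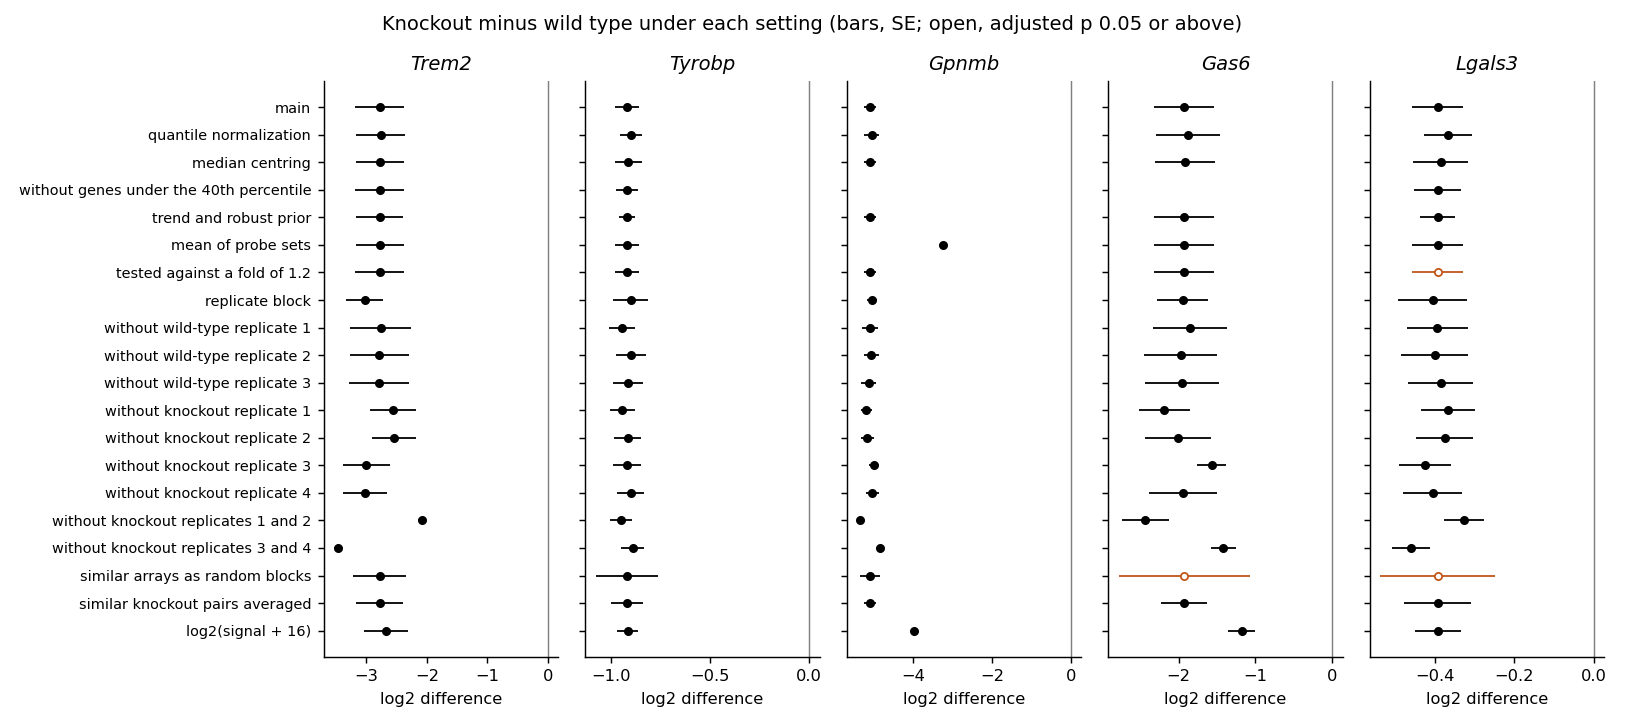
Log2 difference, knockout minus wild type (horizontal axes), of the 5 measured genes under the main setting and each alternative (rows); bars are SE, and open orange points have an adjusted p of 0.05 or above. All points lie below 0. Gas6 is open with random blocks, Lgals3 is open there and when tested against a fold of 1.2, and Gpnmb and Gas6 have no point without genes under the 40th percentile.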

How the data were processed

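Per the submitters' processing notes, arrays were summarised by RMA (robust multi-array average), whose version is not stated. The authors deposited 1 column of normalized intensity per array for 19431 probe sets, on a linear scale as the values show. Array medians ran from 93.8 to 101, and log2 was taken before any test. No detection calls were used. Precision is set by having 3 and 4 arrays.

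A platform annotation named the probe sets: 17335 had 1 symbol, 532 several and 1564 none. Of the first, 17297 matched a RefSeq gene table (GRCm38.p6). The brightest probe set stood for each of 9999 genes. Groups were compared by limma 3.58.1 (R 4.3.3) with Benjamini-Hochberg adjustment over all genes and a threshold of 0.05, and the test was tried on simulated data. Rose and fell mean past that threshold.

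The members, the 10 lists, the markers and the alternatives were chosen with earlier results of these data known. Named genes were, per list, the 4 largest called changes and the gene of highest mean, and the 3 nearest genes per member. Some genes stand in more than 1 list. Among marker lists, dendritic cell, B cell, erythroid and stromal lists had 1 measured gene each, and neutrophil, T cell, mast cell and epithelial lists had 0.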

Additional observations from a re-analysis of the deposited data

Results flagged for a closer look

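Of 62 named genes with 4 knockout arrays each, 1 had an array far from the other knockout arrays. B4galnt1, named as the nearest gene to Tyrobp, had log2 signals of 6.64, 6.50, 6.47 and 6.47 in knockout replicates 1 to 4, so that replicate 1 lay apart by 0.838 of the group's range, above Dixon's critical value for 4 values. Chance flags about 1 in 20 groups of 4 independent values. Because the knockout arrays form similar pairs, 1 array seldom lies far from all the others, so the low number of flags says little.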

How the results depend on the processing

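Under 18 or 19 alternatives each, the 5 measured genes kept a lower mean in knockout. Trem2, Tyrobp and Gpnmb passed under every alternative run, with differences from -3.48 to -2.08, -0.95 to -0.89 and -5.34 to -3.24. Gas6 (-2.44 to -1.18) and Lgals3 (-0.46 to -0.33) each passed under 17. With the similar arrays as random blocks, Gas6 at -1.93 (adjusted p = 0.199) and Lgals3 at -0.39 (adjusted p = 0.130) did not pass, and 3 of the 5 genes passed; tested against a fold of 1.2, Lgals3 at -0.39 (adjusted p = 0.161) did not. Without genes under the 40th percentile, Gpnmb and Gas6 were not tested, and the 3 others passed. Leaving out 1 array at a time gave an adjusted p of at most 0.0328 for Gas6, and less for the others.

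Over all genes, 4305 passed, against 1746 when tested against a fold of 1.2, 904 with random blocks, 6814 without knockout replicates 3 and 4, and 2879 to 4465 without 1 array. Higher genes numbered 1379 and 1404, in place of 2149, without wild-type replicate 2 or 3. Whether replicate numbers pair the groups was not settled. Deviations of same-numbered arrays correlated at 0.12, -0.09 and 0.11, and wild-type replicate 1 correlated at 0.12 with knockout replicate 2 as well. The knockout deviations follow the split into similar pairs, so these values can neither show nor exclude a pairing. With the replicate block 3805 genes passed and the 5 genes kept their calls (adjusted p from 0.000883 to 0.0241). Of 53 named genes other than the members that passed, 20 did not with random blocks and 12 did not against a fold of 1.2. The low signal of Gpnmb and Gas6 in knockout limits the size of their falls.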
